A study of Mus musculus with 4 samples.

Results

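Collagens are the main structural proteins of the extracellular matrix, and each is built from chains encoded by one or several genes. The collagen genes were taken as all genes whose symbol is Col, a number, a and a number, which gave 44 of the 27514 genes listed in all 4 libraries. The libraries came from small intestinal adenomas of C57BL/6 mice aged 11 weeks and labelled male, dissociated and sequenced as single cells without sorting. The ApcMin group carried ApcMin/+;Lef1 +/+ and the VApcMinL group ApcMin/+;Lef1 fl/fl; Villin-Cre, so that all mice carried the Apc mutation. The Villin promoter that drives the Cre is active in intestinal epithelium and not in fibroblasts, endothelium or macrophages. Each library pooled several tumors. Replicate 1 of each group was made with kit 2 and replicate 2 with kit 3 of the 10x Genomics 3′ platform, and each kit therefore held 1 library of each group. Where 4 values follow each other, the kit 2 libraries come before those of kit 3, and within a kit ApcMin comes before VApcMinL.

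Fibrillar collagens (types I, III and V) form the cables of the stroma, and fibroblasts are known as their main source. Type IV chains form the sheet of the basement membrane under epithelium and around vessels, type VI forms beaded filaments, and types XV and XVIII (the multiplexins) sit in or next to basement membranes. FACIT collagens (types IX, XII, XIV and XVI) lie on the surface of fibrils. Type IX is best known from cartilage, where it is built from the products of Col9a1, Col9a2 and Col9a3.

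The sequences shown first belong to the type IV pair Col4a1 and Col4a2 and to the type IX gene Col9a2. Col4a1 and Col4a2 lie head to head on chromosome 8 (GRCm38), Col4a1 from 11198423 to 11312826 on the minus strand and Col4a2 from 11312805 to 11449287 on the plus strand, and their annotated first exons share 22 bases, chr8:11312805-11312826, printed from the plus strand. Col9a2 lies on the plus strand of chromosome 4 from 121039385 to 121055322 and Col9a3 on the plus strand of chromosome 2 from 180597790 to 180622189. The start of Col9a2 differs between annotations, and the RefSeq start lies downstream of the GENCODE start given here. The 250 bases before the RefSeq start hold the core motif of the TCF/LEF factors, the family of Lef1. The 30 bases around it are shown with the motif in capitals, chr4:121039376-121039405 on the plus strand, 178 bases before that start and inside the gene as GENCODE annotates it.
Bases shared by Col4a1 and Col4a2: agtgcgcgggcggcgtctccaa
Col9a2, before the RefSeq start: ccaggaggaaggCTTTGAtcttggaggcaa
The motif searched was CTTTGA on both strands. It stood in 4544 of 32851 RefSeq upstream windows of this length (13.83%). The collagen genes had 38 windows from 35 genes, and 9 of these genes had the motif in a window. This count by gene is not comparable with the share by window. The 9 were Col13a1, Col15a1, Col19a1, Col20a1, Col5a3, Col6a1, Col6a2, Col9a1 and Col9a2. Col9a3 had no window to search. A match of these letters is a description of the window and not a site shown to be bound.

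Counts are whole unique molecular identifiers (UMIs). Levels are given as CPM, the UMIs of a gene or list per 1000000 UMIs of the cells of a class in a library. They count 3′ ends and do not scale with transcript length. The libraries held from 44660305 to 128247396 UMIs, and 2840, 2965, 2146 and 4449 barcodes had at least 1000 UMIs and at most 20% mitochondrial UMIs. The mitochondrial limit removed 62.9% of barcodes in ApcMin replicate 2 and from 27.3% to 30.5% in the other libraries. Of the kept barcodes, 18 were shared by both kit 2 libraries and 0 by both kit 3 libraries. Cells were placed in classes by at least 3 detected markers, none of them a collagen. Not all labels matched the data. Lef1, the gene targeted in VApcMinL, stood at 9.09, 25.5, 30.4 and 21.4 CPM in adenoma-like cells, so in kit 2 it was higher in the library labelled VApcMinL (3′ UMIs can also count transcripts that lack internal exons). Xist, the transcript of the inactive X chromosome, was at 0.110 and 0.0916 CPM in adenoma-like cells of the libraries labelled ApcMin and at 1121 and 319 in those labelled VApcMinL, although all were labelled male. Genotype and the level of Xist therefore cannot be told apart, and group names below are those of the labels.

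Fibroblast-like cells numbered 43, 21, 9 and 2, endothelial-like cells 132, 64, 8 and 7, and macrophage-like cells 124, 82, 33 and 67. Adenoma-like cells, which are epithelial cells with at least 3 of 10 markers of Apc-mutant adenoma such as Notum, Nkd1 and Axin2, numbered 393, 572, 299 and 1787. Other epithelial-like cells numbered 1166, 1535, 1415 and 1614. In the 2 fibroblast-like cells of VApcMinL replicate 2, 6 of the 10 fibroblast markers were at 0. Every fibroblast-like value of that library rests on these 2 cells, also where a range or a kit 3 ratio includes it. The summed fibroblast markers stood at 8801, 9989, 8679 and 4739 CPM in fibroblast-like cells and at 0 to 23.0 in endothelial-like cells.

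Of the 44 collagen genes, 29 had a UMI in fibroblast-like, 26 in endothelial-like, 20 in macrophage-like, 42 in adenoma-like and 40 in other epithelial-like cells. Col19a1 was at 0 in all classes. The number with at least 200 UMIs was 12 in fibroblast-like and 4 in endothelial-like cells, 8 in each epithelial class and 0 in macrophage-like cells. Classes with more UMIs in all allowed more genes to be seen, so these counts do not order the classes.

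Summed over the family, collagen UMIs stood at 14541, 17493, 27090 and 28256 CPM in fibroblast-like cells and at 3518, 3195, 7235 and 7165 in endothelial-like cells. Macrophage-like cells held 95.7, 255, 58.3 and 85.2 CPM, adenoma-like cells 95.3, 180, 155 and 86.4, and other epithelial-like cells 180, 48.8, 27.9 and 34.0. The ranges of fibroblast-like and endothelial-like cells did not overlap with each other or with those of the other classes. Droplets with 1 to 100 UMIs, which hold no cell and show the free RNA of the suspension, held 524, 441, 909 and 893 collagen CPM. The summed level was thus lower in every library in macrophage-like and both epithelial classes than in free RNA. Fibroblast-like and endothelial-like values were higher in kit 3 than in kit 2 for both genotypes, and with so few kit 3 cells of these classes kit and cell sampling cannot be told apart.

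**Figure D1:**
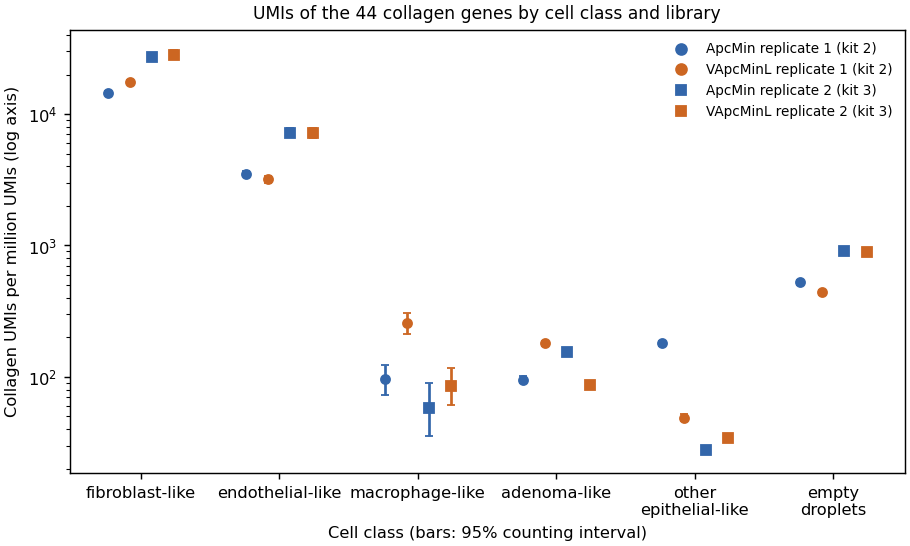
Summed level of the 44 collagen genes in CPM, UMIs per 1000000 UMIs (log axis), in 5 cell classes and in empty droplets, 1 point for each library with its 95% Poisson interval, which covers counting error only. Fibroblast-like cells lie between 14541 and 28256 and endothelial-like cells between 3195 and 7235, above the empty droplets at 441 to 909, while the other 3 classes lie below them.

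The 3 genes of types I and III led in fibroblast-like cells. Col1a1 stood at 2723, 3869, 6436 and 7019 CPM, Col3a1 at 3135, 4150, 5636 and 3666, and Col1a2 at 2267, 3154, 4717 and 3532. Cells with a Col1a1 UMI made up 41 of 43, 21 of 21, 9 of 9 and 2 of 2. Fibrillar genes together took 59.0% to 69.7% of the collagen UMIs of fibroblast-like cells, where the 59.0% came from the 2 cells of VApcMinL replicate 2. In endothelial-like cells Col1a1 stood at 14.5 CPM in ApcMin replicate 1, from 9 UMIs in 3 cells, and at 0 in the other 3 libraries.

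Col5a2 and Col5a1, whose chains join type I fibrils, followed at 464, 533, 1114 and 1431 and at 262, 334, 576 and 626 CPM. Col5a2 UMIs outnumbered those of Col5a1 by 1.77, 1.60, 1.94 and 2.29 times, with 95% counting intervals that lay above 1 in every library. Col1a1 exceeded Col1a2 by 1.20, 1.23, 1.36 and 1.99 times. The ratio in VApcMinL replicate 2 rested on 157 and 79 UMIs from 2 cells. In the type I protein these chains combine as a pair of one and a single copy of the other, but 3′ UMI ratios between genes also carry differences in capture and were not read as chain ratios.

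Type VI genes took 10.8% to 20.3% of fibroblast-like collagen UMIs, where the 20.3% came from the 2 cells of VApcMinL replicate 2. Col6a1 stood at 1088, 997, 1151 and 1878 CPM, Col6a2 at 1011, 961, 695 and 1207, and Col6a3, which encodes the longest chain of the filament, at 460, 492, 673 and 2191. Col6a4, which encodes an alternative to that chain, stood at 255, 334, 329 and 447. The highest Col6a3 value came from the 2 cells of VApcMinL replicate 2, and the other 3 libraries were within 460 to 673.

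Among FACIT genes, Col12a1 stood at 286, 258, 770 and 939 and Col14a1 at 262, 182, 449 and 0 CPM in fibroblast-like cells. The 0 again came from VApcMinL replicate 2, where a count of 0 allows up to 134 CPM. Col16a1 was lower, at 52.3, 111, 74.8 and 0. Col9a2 had no UMI in fibroblast-like cells of any library and Col9a3 had 2, both in VApcMinL replicate 1.

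Endothelial-like cells were led by type IV. Col4a1 stood at 1475, 1093, 3964 and 3576 CPM and Col4a2 at 1061, 1087, 2125 and 2238, and basement membrane genes took 68.6% to 84.3% of endothelial collagen UMIs. Fibroblast-like cells also held both, Col4a1 at 551, 539, 1615 and 2414 and Col4a2 at 520, 633, 1091 and 1431. In each library Col4a1 and Col4a2 were lower in fibroblast-like than in endothelial-like cells.

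The multiplexins were split between both classes. Col15a1 stood at 509, 558, 812 and 792 CPM in endothelial-like cells and at 45.3, 35.2, 52.3 and 44.7 in fibroblast-like cells. Col18a1, the gene of the precursor of endostatin, went the other way, at 167, 197, 203 and 259 in endothelial-like and 889, 662, 1353 and 849 in fibroblast-like cells. For both genes the 4 libraries of one class did not overlap with those of the other. Of the transmembrane collagens, Col13a1 stood at 137, 177, 59.7 and 218 and Col23a1 at 37.0, 29.6, 47.8 and 68.2 in endothelial-like cells.

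**Figure D2:**
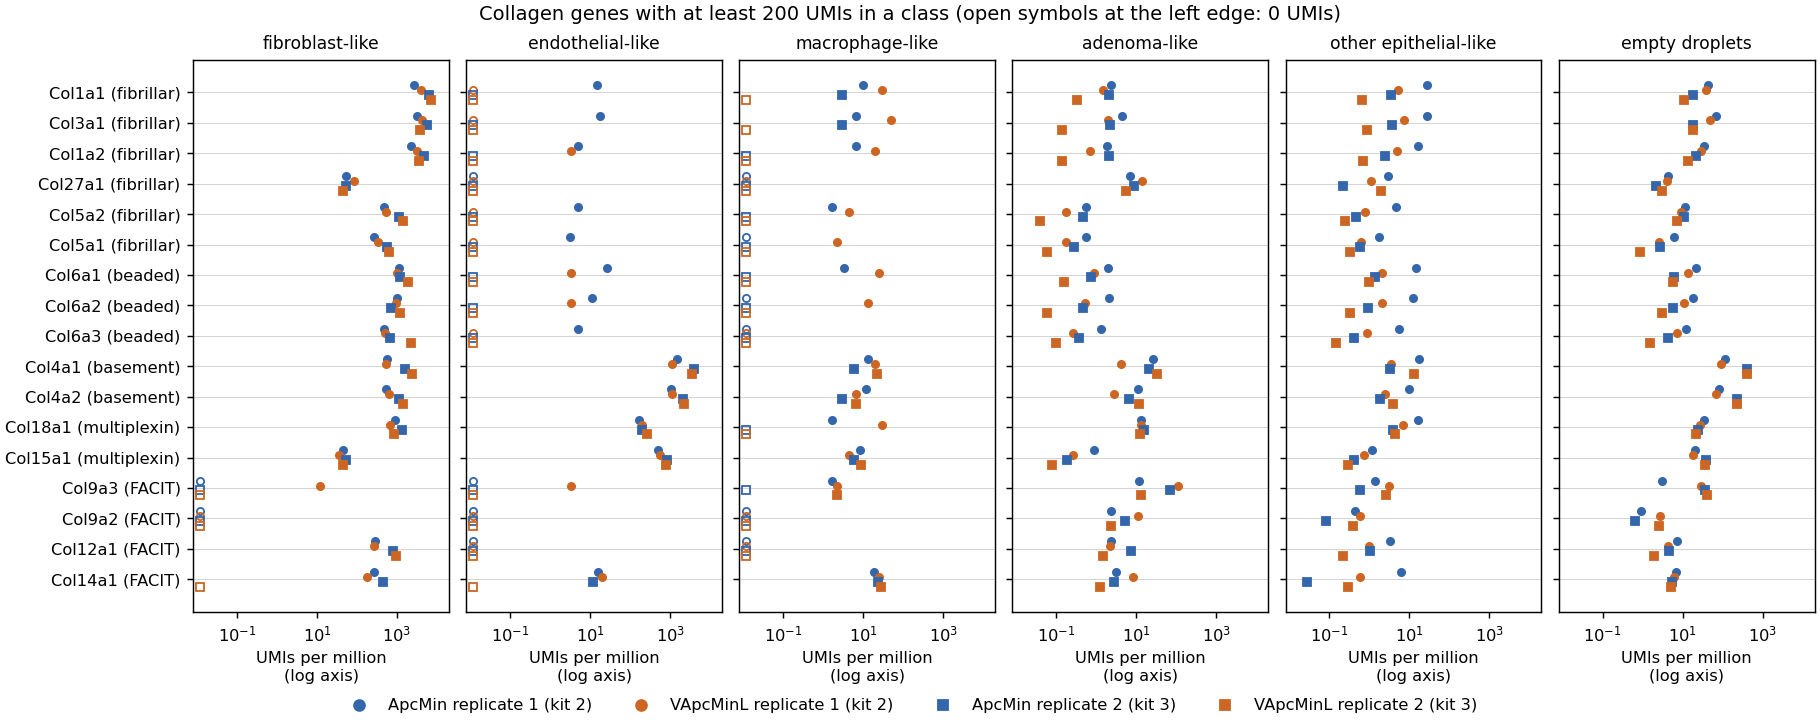
CPM (log axis) of the 17 collagen genes with at least 200 UMIs in a class, by cell class, 1 symbol for each library (circles kit 2, squares kit 3, open symbols at the left edge 0 UMIs). Fibrillar and beaded filament genes sit in fibroblast-like cells at 262 CPM or more except Col27a1, type IV is highest in endothelial-like cells, and Col9a3 and Col9a2 have their highest class values in adenoma-like cells.

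Differences between classes were tested on UMIs summed per library and class with the quasi-likelihood test of edgeR, with the library as a block and p values adjusted over all genes tested. Fibroblast-like and endothelial-like cells could be compared in the kit 2 libraries, which had at least 10 cells of each. The class fits limited to kit 2 left 1 residual degree of freedom. Their p values therefore rest largely on variances shared over genes. Of 19 collagen genes tested, 18 passed at an adjusted p below 0.05, 14 of them higher and 4 lower in fibroblast-like cells, where 29.4% of all 4907 genes tested passed (13.4% higher and 16% lower). The median log2 difference was 6.86 over the 19 genes (5.95 with genes at 0 in one class set to their bound) and −0.03 over all genes. The count was also 18, of 18 tested, with all 4 libraries in the fit, where 36.1% of genes passed (18% higher and 18.2% lower). Without the library block that fit called 12 (share over all genes not given).

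Higher in fibroblast-like cells were Col1a2 by 9.15 ± 0.31 (log2 difference ± SE, n = 2 libraries), Col1a1 by 8.35 ± 0.37 and Col3a1 by 8.24 ± 0.37, with an edgeR adjusted p of 6.93e-09 for Col1a1. Col5a2 (7.15 ± 0.42) and the type VI genes Col6a3 (7.10 ± 0.42), Col6a2 (6.87 ± 0.33), Col6a4 (6.86 ± 0.48) and Col6a1 (5.95 ± 0.34) followed. Where the endothelial count was 3 UMIs or fewer, the pooled ratio shows how wide the range is: Col5a2 was 151 times higher with a 95% counting interval of 51.0 to 738. Col12a1 and Col27a1 had no endothelial UMI in kit 2 and were at least 85.0-fold and 19.6-fold higher in fibroblast-like cells, against the limit that 0 allows over both libraries. Col16a1 differed by 4.88 ± 0.76, Col14a1 by 3.77 ± 0.35 and Col18a1 by 2.17 ± 0.23 (edgeR adjusted p = 8.93e-06 for Col18a1).

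Lower in fibroblast-like cells were Col15a1, by 3.61 ± 0.28 on the log2 scale, Col13a1 by 1.76 ± 0.38, Col4a1 by 1.19 ± 0.18 and Col4a2 by 0.86 ± 0.18. Their edgeR adjusted p values were 5.84e-07, 0.00281, 0.000207 and 0.00198. DESeq2 did not call Col13a1, Col4a2 or Col12a1. Col23a1, with 10 UMIs in fibroblast-like cells of ApcMin replicate 1 and 0 in those of the other 3 libraries, did not pass (−0.64 ± 0.69, edgeR adjusted p = 0.574). Smooth muscle and pericyte markers stood at 502 and 1055 CPM in kit 2 fibroblast-like cells and at 58.0 and 65.7 in endothelial-like cells, and the barcodes that passed that marker list held 9196 to 15338 collagen CPM. Their part in these differences was not tested.

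Against adenoma-like cells, 22 of 23 collagen genes passed in fibroblast-like cells of kit 2, 21 higher and 1 lower, where 24.8% of all 11792 genes passed (12.1% higher and 12.8% lower). With all 4 libraries it was 24 of 25, where 33.4% of genes passed (14.5% higher and 18.9% lower). Col1a2 (10.89 ± 0.34), Col1a1 (10.57 ± 0.32) and Col5a2 (10.22 ± 0.43) differed most among those above 3 UMIs in both classes. Col4a1 and Col18a1 differed less, by 5.44 ± 0.32 and 5.69 ± 0.30. Col27a1, a fibrillar gene of low level, stood at 52.3, 82.1, 52.3 and 44.7 CPM in fibroblast-like cells and was higher than in adenoma-like cells by 2.54 ± 0.51. The gene that was lower was Col9a3 (−3.70 ± 0.78), from 2 fibroblast-like UMIs against 1369 (ratio 0.0665 with a 95% counting interval of 0.00804 to 0.241).

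Against the same adenoma-like cells, 11 of 17 collagen genes passed in endothelial-like cells, 8 higher and 3 lower, where 37.4% of all genes passed (17.9% higher and 19.5% lower). With all 4 libraries 45.1% of all genes passed (19.6% higher and 25.5% lower). Higher were Col13a1 and Col15a1 (9.74 ± 0.36), Col4a2 (7.32 ± 0.43), Col4a1 (6.67 ± 0.47), Col23a1 (6.33 ± 0.79), Col18a1 (3.65 ± 0.23), Col6a1 (3.15 ± 0.77) and Col14a1 (1.64 ± 0.55). Col6a1, from 16, 1, 0 and 0 endothelial-like UMIs, and Col14a1 did not pass with DESeq2, with gates of 2 or 4 markers, or in the fits of 4 libraries when either kit 2 library was left out. Col14a1 also did not pass without the block, with a higher minimum of UMIs per barcode or without the highest Scrublet scores. For Col13a1 the adenoma-like count was 1 UMI against 139, a ratio of 3126 with a 95% counting interval of 552 to 124335. Col9a3 was lower, from 1 UMI against 1369, and Col27a1 and Col9a2 were at 0 in endothelial-like cells, at least 3.34-fold and 2.22-fold lower. Since the fibroblast-like and endothelial-like comparisons use the same adenoma-like sums, the calls on Col9a3 share those sums.

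**Figure D3:**
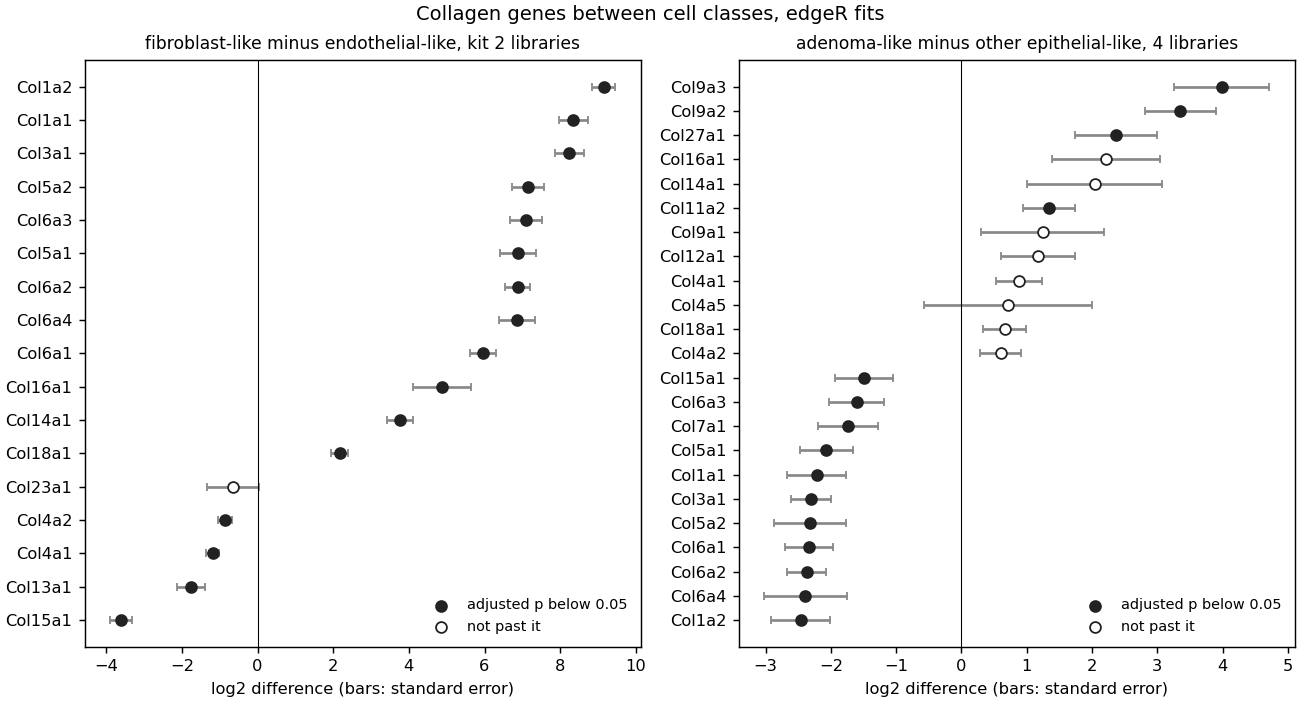
Log2 differences of collagen genes between fibroblast-like and endothelial-like cells (left, kit 2 libraries) and between adenoma-like and other epithelial-like cells (right, 4 libraries) from edgeR, with standard errors; filled points passed an adjusted p of 0.05 and genes at 0 in one class are left out. Fibrillar and type VI genes lie at 5.95 or more on the left, and Col9a3, Col9a2 and Col27a1 lead on the right at 3.98, 3.35 and 2.36.

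Macrophages are not known as a main source of fibrillar collagen, and no collagen gene reached 200 UMIs in macrophage-like cells. Col14a1 was the most even gene, at 18.1, 24.4, 23.3 and 28.4 CPM from 11, 11, 8 and 13 UMIs. Col11a2 stood at 6.60, 4.43, 11.7 and 6.55 and Col15a1 at 8.25, 4.43, 5.83 and 8.74. Col3a1 counts were 4, 22, 1 and 0, and 20 of the 22 UMIs of VApcMinL replicate 1 came from 1 cell.

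Of 19 genes tested against adenoma-like cells 13 passed, 9 higher and 4 lower, where 49.3% of all genes passed (21.3% higher and 28% lower). Col15a1 (4.79 ± 0.84), Col11a2 (3.57 ± 0.68), Col23a1 (3.098 ± 0.95), Col14a1 (3.07 ± 0.48) and Col7a1 (3.01 ± 1.11) were higher in macrophage-like cells (log2 difference ± SE, n = 4 libraries), as were Col1a1, Col6a1, Col1a2 and Col3a1 at 2.56 to 2.75. Without VApcMinL replicate 1 the number of calls was 7 and without ApcMin replicate 1 it was 8 (share over all genes not given). Fibroblast markers stood at 24.7, 44.3, 11.7 and 2.18 CPM in macrophage-like cells, with 4, 8, 8 and 9 of the 10 at 0, and their part in the fibrillar values was not tested. The difference in Col3a1 was 0.68 without VApcMinL replicate 1 and no longer passed (edgeR adjusted p = 0.578). Col1a1, Col1a2, Col6a1 and Col7a1 did not pass there either, and Col3a1, Col1a2 and Col6a1 did not pass with DESeq2 or without the library block. Against empty droplets, Col14a1 in macrophage-like cells stood at 2.70, 4.03, 4.21 and 5.63 times their level. Col15a1, Col1a1, Col1a2 and Col3a1 were below empty droplets in all 4 libraries, Col15a1 at 0.153 to 0.399 times that level. Lower were Col9a3, by 4.58 ± 0.53, and Col27a1, Col9a2 and Col12a1, which had no macrophage-like UMI and were at least 4.46-fold, 2.45-fold and 1.51-fold lower. With 1 library left out, Col12a1 passed in none of the 4 fits (edgeR adjusted p from 0.0710 to 0.128). Col9a2 did not pass in every such fit (largest edgeR adjusted p 0.0847).

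Of the collagen genes in adenoma-like cells, Col9a3, Col4a1, Col18a1 and Col4a2 had the most UMIs, and the type IX genes Col9a3 and Col9a2 had the largest positive differences from other epithelial-like cells. Col9a3 stood at 11.9, 108, 68.6 and 12.7 CPM against 1.41, 3.04, 0.575 and 2.63 in other epithelial-like cells, so all 4 adenoma-like values were above all 4 of the others. Cells with a Col9a3 UMI made up 17.6%, 61.2%, 46.5% and 19.3% of adenoma-like and 1.54%, 3.26%, 1.27% and 2.60% of other epithelial-like cells. With every cell thinned to 1000 UMIs the shares were 1.78%, 11.5%, 4.68% and 1.18% against 0.257%, 0.783%, 0.0707% and 0.496%, since adenoma-like cells were the deeper ones (a median of 21011 against 10606 UMIs in ApcMin replicate 1).

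Col9a2 stood at 2.30, 11.0, 5.13 and 2.37 CPM in adenoma-like and at 0.445, 0.567, 0.0821 and 0.391 in other epithelial-like cells, again without overlap. Col9a3 UMIs outnumbered those of Col9a2 by 5.19, 9.77, 13.4 and 5.37 times. Col9a1, the gene of the remaining chain, had 2, 10, 7 and 3 UMIs, or 0.0594 to 0.856 CPM. The level of Col9a3 in empty droplets was 3.02, 28.4, 37.4 and 41.9 CPM, so adenoma-like cells lay above free RNA in 3 libraries and at 0.304 times its level in VApcMinL replicate 2. Col9a2 stood at 0.928, 2.79, 0.664 and 2.63 CPM in empty droplets, from 4, 12, 3 and 12 UMIs. Its adenoma-like level was likewise below free RNA in VApcMinL replicate 2 and above it in the other libraries.

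Col27a1 stood at 6.90, 13.9, 8.52 and 5.44 CPM in adenoma-like and at 2.89, 1.08, 0.219 and 1.95 in other epithelial-like cells. It was above empty droplets by 1.57, 3.31, 3.85 and 1.77 times in adenoma-like cells and below them in the other epithelial-like cells of every library. Col16a1 stood at 0.438, 5.13, 3.39 and 1.50 against 0.668, 0.412, 0.0821 and 0.462 and overlapped through ApcMin replicate 1.

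In the test of adenoma-like against other epithelial-like cells, 15 of 23 collagen genes passed, 4 higher and 11 lower, where 59.3% of all 13874 genes passed (29% higher and 30.3% lower). The share of collagen genes that passed was thus close to that of all genes. The genes that were higher were Col9a3, by 3.98 ± 0.73 (log2 difference ± SE, n = 4 libraries, edgeR adjusted p = 0.00538), Col9a2, by 3.35 ± 0.54 (edgeR adjusted p = 0.00359), Col27a1, by 2.36 ± 0.63 (edgeR adjusted p = 0.0194), and Col11a2, by 1.34 ± 0.40 (edgeR adjusted p = 0.0289). Col9a3 and Col9a2 passed in all 13 alternative analyses, with differences of 3.27 to 4.80 and 2.89 to 3.95. Col27a1 did not pass without VApcMinL replicate 1 (edgeR adjusted p = 0.0933) or with gates of 4 markers, and Col11a2 rested on 5 to 21 UMIs a library and passed in 5 of 10. Leaving out VApcMinL replicate 1 took the number of calls to 8, and fitting without the library block took it to 4. The share of all genes that passed in these fits is not given, so the drops cannot be read as particular to collagen genes.

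The 11 genes that were lower in adenoma-like cells are mainly fibrillar and type VI genes: Col1a2 (−2.46 ± 0.45), Col6a4 (−2.39 ± 0.63), Col6a2 (−2.37 ± 0.30), Col6a1 (−2.34 ± 0.37), Col5a2 (−2.32 ± 0.55), Col3a1 (−2.30 ± 0.30), Col1a1 (−2.21 ± 0.45), Col5a1 (−2.07 ± 0.41) and Col6a3 (−1.61 ± 0.42), with Col7a1 (−1.73 ± 0.46) and Col15a1 (−1.49 ± 0.45). Col1a1 stood at 27.2, 5.20, 3.45 and 0.639 CPM in other epithelial-like and at 2.30, 1.45, 2.02 and 0.336 in adenoma-like cells. A few barcodes held most of them: the 5 cells with the most Col1a1 UMIs held 60.4%, 74.3%, 77.8% and 72.2% of those in other epithelial-like cells. Both classes were below the 10.7 to 42.9 CPM of empty droplets. The summed fibroblast markers stood at 103, 67.9, 94.6 and 49.2 CPM in other epithelial-like and at 56.8, 76.6, 81.6 and 63.3 in adenoma-like cells, with 0, 2, 4 and 2 against 2, 4, 6 and 3 of the 10 markers at 0. Their part in the lower fibrillar and type VI values was not tested. None of the 11 passed as lower with gates of 2 markers or without the library block, though some were not tested there. Col7a1, the gene of the anchoring fibrils under epithelium, was low in these classes, at 0.371, 1.70, 1.12 and 0.391 CPM in other epithelial-like and 0.219, 0.342, 0.366 and 0.257 in adenoma-like cells. In fibroblast-like cells it stood at 6.97, 11.7, 0 and 179 CPM, from 2, 2, 0 and 4 UMIs, and the 179 came from the 2 cells of VApcMinL replicate 2.

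Col4a1 was the other main collagen of epithelial cells by count, at 25.8, 4.02, 20.6 and 33.7 CPM in adenoma-like and 17.5, 3.56, 3.17 and 12.6 in other epithelial-like cells, and Col4a2 stood at 11.1, 2.74, 6.60 and 12.0 in adenoma-like cells. Neither passed between these classes (0.89 ± 0.35 with an edgeR adjusted p of 0.0712 for Col4a1, and 0.60 ± 0.31 with one of 0.141 for Col4a2). Empty droplets held far more Col4a1, 115, 93.4, 416 and 420 CPM. Endothelial markers stood at 106, 59.1, 104 and 115 CPM in adenoma-like and at 46.5, 18.0, 6.98 and 39.9 in other epithelial-like cells, with at most 2 of the 10 at 0, and their part in the epithelial Col4a1 was not tested. Col18a1, at 13.0, 12.9, 15.8 and 12.3 in adenoma-like cells, varied little among libraries and also lay below its empty droplet level, 33.6, 27.9, 23.9 and 21.3.

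Col4a1 and Col4a2 share a start region, and their chains form the same molecule. Col4a1 UMIs per Col4a2 UMI were 1.06, 0.852, 1.48 and 1.69 in fibroblast-like, 1.39, 1.01, 1.87 and 1.60 in endothelial-like, and 2.34, 1.47, 3.13 and 2.81 in adenoma-like cells. Empty droplets stood at 1.43, 1.34, 1.77 and 1.81 and other epithelial-like cells at 1.76, 1.47, 1.73 and 3.18. The 95% counting intervals of adenoma-like cells lay wholly above those of empty droplets in 3 libraries, and in VApcMinL replicate 1 the interval was 0.918 to 2.38 from 47 and 32 UMIs. In endothelial-like cells kit 3 ratios exceeded those of kit 2 for both genotypes.

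**Figure D4:**
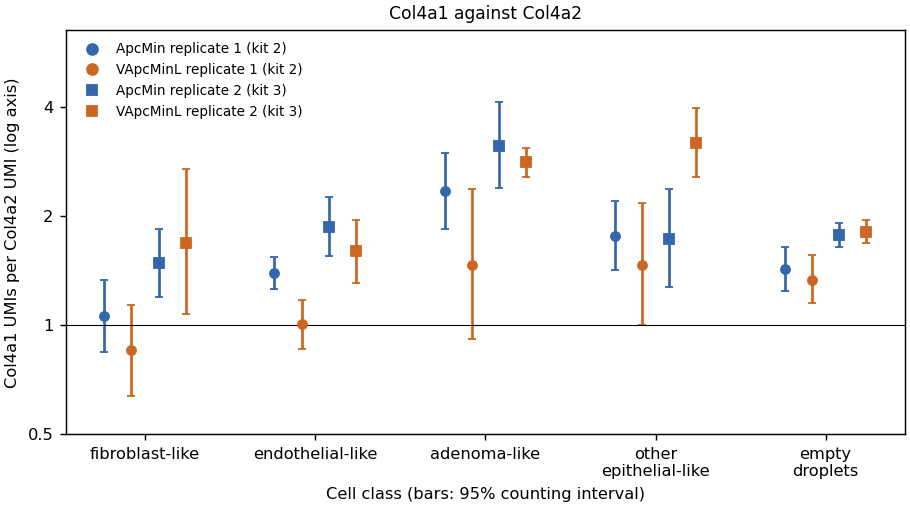
Col4a1 UMIs per Col4a2 UMI (log axis) by cell class, 1 point for each library with its 95% counting interval. Adenoma-like cells lie at 1.47 to 3.13 and fibroblast-like cells at 0.852 to 1.69, and the line marks equal counts.

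The comparison of genotypes asks whether deletion of Lef1 in the epithelium went with other collagen levels in the tumor. In adenoma-like cells 0 of 13 collagen genes passed, where 0% of all 12744 genes passed by edgeR. DESeq2 called 6 genes and 0 collagen genes, and 2 collagen genes, Col1a2 and Col3a1, had an unadjusted p below 0.05 in edgeR. In other epithelial-like cells 0 of 21 passed (background 0.015%, of which 0.00748% each way; 6 had an unadjusted p below 0.05), and in macrophage-like cells 0 of 1 (background 0.0188%; 0 unadjusted). DESeq2 also called 0 collagen genes in these 2 classes. The 6 with an unadjusted edgeR p below 0.05 in other epithelial-like cells were Col1a1, Col1a2, Col3a1, Col6a1, Col6a2 and Col6a3, all lower in VApcMinL. For no class is the share of all genes below that unadjusted threshold given. The unadjusted counts therefore cannot be read as particular to collagen genes. Fibroblast-like and endothelial-like cells had fewer than 10 cells in each kit 3 library and so no planned test; with all 4 libraries fitted regardless, 0 of 16 and 0 of 5 collagen genes passed (background 0.251%, of which 0.144% higher and 0.108% lower, and 0.0284%; 1 and 0 unadjusted), and DESeq2 called 0. With 1 residual degree of freedom these tests leave wide errors: the difference for Col9a3 in adenoma-like cells was 0.33 ± 1.74 (log2 difference ± SE, edgeR adjusted p = 1.00).

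The 2 kits went opposite ways for the type IX genes. In adenoma-like cells Col9a3 went from 11.9 in ApcMin to 108 in VApcMinL with kit 2 and from 68.6 to 12.7 with kit 3, and Col9a2, Col27a1 and Col16a1 had the same pattern. The summed adenoma markers moved alike, from 533 to 1901 and from 1536 to 641 CPM, and so did Lef1 (9.09 to 25.5 and 30.4 to 21.4). Col4a1 had the reverse pattern, from 25.8 to 4.02 and from 20.6 to 33.7. What part the adenoma marker level has in the Col9a3 values was not tested. Of 12 collagen genes with at least 20 UMIs in each kit pair, 5 went the same way in both kits and 7 went opposite ways.

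**Figure D5:**
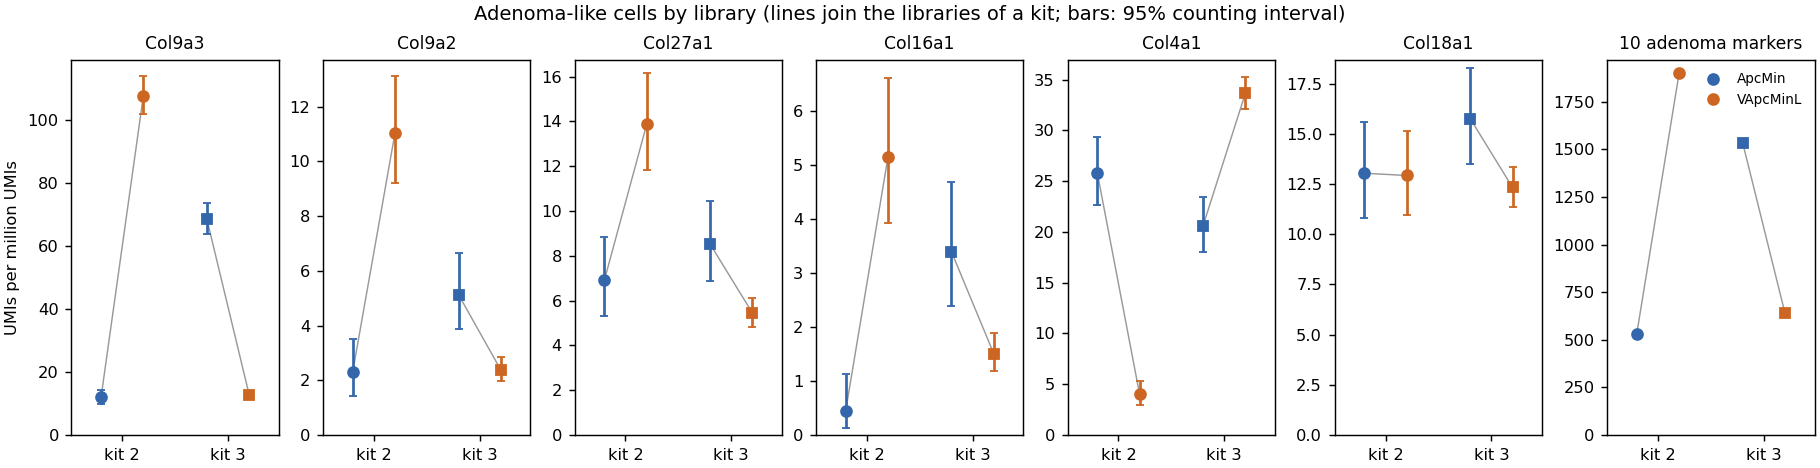
CPM of 6 collagen genes and of the 10 summed adenoma markers in adenoma-like cells, with the libraries of a kit joined by a line and 95% counting intervals for the genes (axes start at 0 and differ). Col9a3, Col9a2, Col27a1 and Col16a1 are higher in VApcMinL with kit 2 and lower with kit 3, as do the adenoma markers (533 to 1901 and 1536 to 641), and Col4a1 has the opposite order.

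The ratio of VApcMinL to ApcMin in the family total was 1.20 (95% counting interval 1.15 to 1.26) with kit 2 and 1.04 (0.957 to 1.14) with kit 3 in fibroblast-like cells, and 0.908 (0.841 to 0.980) and 0.990 (0.879 to 1.11) in endothelial-like cells. In macrophage-like cells it was 2.66 (1.93 to 3.72) and 1.46 (0.832 to 2.64). These 3 classes thus had the same direction in both kits, with an interval that held 1 in kit 3. The kit 3 ratio in fibroblast-like cells rests on 2 cells in VApcMinL. In adenoma-like cells the ratio was 1.88 and 0.558, and in other epithelial-like cells 0.272 and 1.22, opposite ways in both classes. These intervals cover counting error and not the spread between tumors. In other epithelial-like cells the low kit 2 ratio went with Col1a1 at 27.2 against 5.20 and Col3a1 at 27.1 against 7.37 CPM, and the edgeR differences over both kits were −2.47 ± 0.48 and −2.01 ± 0.46 (adjusted p = 1.00 for both). In fibroblast-like cells 14 genes could be followed in both kits, of which 8 went the same way, and in endothelial-like cells 4 of 5 did.

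Collagen chains are hydroxylated, folded, trimmed and crosslinked by a set of helper proteins, and 36 genes of these steps and of collagen receptors were listed. Between fibroblast-like and endothelial-like cells 24 of them were tested, of which 16 were higher in fibroblast-like cells and 0 lower, where 13.4% of all genes were higher and 16% lower. Lox and Loxl1, whose enzymes crosslink collagen, stood at 41.8, 70.3, 194 and 313 and at 105, 99.7, 82.2 and 134 CPM in fibroblast-like cells and at 0 in the endothelial-like cells of every library. Adamts2, which trims the ends of fibrillar procollagen, was likewise at 0 in endothelial-like cells and at 94.1, 46.9, 105 and 0 in fibroblast-like cells. Pcolce, which speeds up the trimming of procollagen, differed by 4.50 ± 0.32, Ddr2, a receptor of fibrillar collagen, by 4.21 ± 0.68, Loxl2 by 3.87 ± 0.28 and Plod2, a lysyl hydroxylase, by 3.37 ± 0.48. Ddr1, another collagen receptor, differed by 4.85 ± 1.03. It stood at 38.4, 41.0, 37.4 and 0 CPM in fibroblast-like cells and at 1.61, 0, 0 and 0 in endothelial-like cells. The part of epithelial RNA in these Ddr1 values was not tested.

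Against adenoma-like cells 18 of 27 helper genes were higher in fibroblast-like cells and 0 lower, and 14 of 23 were higher and 2 lower in endothelial-like cells. Of all genes 12.1% were higher and 12.8% lower in the first of these comparisons, and 17.9% and 19.5% in the other. Serpinh1, the collagen chaperone Hsp47, stood at 1356, 2204, 1764 and 1162 CPM in fibroblast-like, 731, 1054, 860 and 819 in endothelial-like and 5.59, 13.9, 11.5 and 2.08 in adenoma-like cells. Ddr1, a collagen receptor of epithelium, was at 62.0, 83.4, 72.0 and 55.8 in adenoma-like cells and was lower in endothelial-like cells (−6.12 ± 0.61). In macrophage-like cells 8 of 24 were higher and 8 lower than in adenoma-like cells, where 21.3% of all genes were higher and 28% lower.

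Between adenoma-like and other epithelial-like cells 9 of 23 helper genes were higher and 5 lower, and 9 did not pass. P3h4 (1.93 ± 0.28), Crtap (1.75 ± 0.40), P4ha2 (1.58 ± 0.19) and P3h1 (1.55 ± 0.55), all of the prolyl and lysyl hydroxylase machinery, were higher in adenoma-like cells. Itga1 (−2.16 ± 0.31), Pcolce (−1.66 ± 0.39), P4hb (−1.39 ± 0.11) and Sparc (−1.30 ± 0.30) were lower. P4hb belongs to the same machinery and stood at 298, 379, 424 and 303 CPM in adenoma-like and 618, 713, 881 and 615 in other epithelial-like cells. Of 12 hydroxylase and glycosyltransferase genes tested, 7 were higher, 1 was lower and 4 did not pass. With 59.3% of all genes passing in this comparison, 14 of 23 is close to the background. Between genotypes 0 of the helper genes passed in any class by edgeR.

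The remaining 17 collagen genes were rare in every class. Those named here were picked after their values were seen. Their counts over all 5 classes ran from 0 for Col19a1 to 50 for Col20a1, of which 25 were in other epithelial-like cells. Col2a1, the main fibrillar gene of cartilage, had 13 UMIs, all in adenoma-like cells, and Col9a1 had 22 of its 32 there. Col4a3 and Col4a4, the type IV genes of the kidney filter, had 16 and 26 UMIs in cells against 42 and 62 in empty droplets. At these counts no difference between classes could be shown for them.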

How the data were processed

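The authors deposited raw UMI counts per gene and barcode for 4 libraries; the submitters' processing notes name Cell Ranger 2.1.1, Seurat 3.1.1 and mm10. Replicates were separate tumor pools per the labels, with no statement on shared mice, so p values measure the spread between libraries. Where a fit left 1 residual degree of freedom, they rest largely on variances shared over genes. Only genes present in every table were used (27514, from 27998 in kit 2 and 31053 in kit 3). Barcodes with at least 1000 UMIs and at most 20% mitochondrial UMIs were classed by at least 3 markers. Those passing 2 non-epithelial lists, or 1 such list with more epithelial UMIs, were left out. The first held 12.8% to 41.7% of collagen UMIs and the second 5.31% to 22.4%. Among the second, 173, 58, 108 and 590 barcodes had passed the endothelial list, at 152, 163, 194 and 143 collagen CPM. Their part in the adenoma-like Col4a1 and Col4a2 values was not tested. Doublets were otherwise kept, and removal of the highest Scrublet scores (scanpy 1.11.5) was an alternative. Classes were assigned here and not taken from the study, so values can differ from the study's for that reason. Sums of UMI counts for each class of a library were tested with edgeR 4.0.16 (R 4.3.3) by quasi-likelihood with TMM scaling, its default expression filter, the kit (genotypes) or library (classes) as a block and Benjamini-Hochberg adjustment over all genes at 0.05; a library needed 10 cells of a class. The submitted replicate numbers match the kits in the labels, and gene deviations of same-numbered libraries correlated at 0.142 to 0.468 across classes. DESeq2 1.42.0, other gates, filters, scalings and left-out libraries were alternatives. The SE of an edgeR difference was taken as its size divided by the square root of the F value of the test. The edgeR fit was also run on simulated counts for some of the comparisons, without kit or library effects. That run therefore does not show how the tests behave under the spread of these libraries. Named genes were those with at least 200 UMIs in a class or called in a test, and called helper genes, at most 8 a comparison. Single-value intervals are exact at 95% and, with the limit of 3 counts at 0, cover counting error only. The members and lists were chosen with earlier results of these data known. Gene positions are from GENCODE (GRCm38) and sequences from RefSeq (GRCm38.p6), where all 44 and 35 genes were found.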

Additional observations from a re-analysis of the deposited data

Results flagged for a closer look

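Of the 7 collagen genes that differed in opposite directions between the genotypes of each kit in adenoma-like cells, 4 differed by more than 1 on the log2 scale in both kits. On the log2 scale VApcMinL differed from ApcMin by 3.15 with kit 2 and −2.42 with kit 3 for Col9a3, 2.17 and −1.09 for Col9a2, 3.08 and −1.14 for Col16a1, and 1.36 and −1.12 for Col14a1. The difference between the kits was not tested, as each kit held 1 library of each genotype.

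Col8a1, a collagen of vessel walls and the cornea, appeared in empty droplets at 2.32, 1.86, 19.0 and 26.8 CPM (226 UMIs), and in fibroblast-like cells at 6.97, 0, 82.2 and 0 CPM, from 13 UMIs. No class held more than 18 UMIs. Col8a2, its partner chain, stood at 6.42 and 7.24 CPM in the kit 3 empty droplets (62 UMIs in all) against at most 1 UMI in a class. Empty droplets served here only as the level of free RNA and entered no test.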

How the results depend on the processing

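Of the named gene values recomputed under the alternatives, 1183 kept direction and call, 79 kept direction without passing and 3 changed sign. Col6a3 and Col15a1 in adenoma-like against other epithelial-like cells became 0.47 and 0.061, and Col1a1 between genotypes in adenoma-like cells 0.050, all with gates of 2 markers. Counts of called collagen genes moved as follows, and the share of all genes that passed in the same fits is not given. Endothelial-like against adenoma-like cells (11) gave 7 with DESeq2 and 7 with gates of 2 markers. Macrophage-like against adenoma-like cells (13) gave 7 without the replicate block, 7 with gates of 2 markers and 7 to 13 with 1 library left out. Adenoma-like against other epithelial-like cells (15) gave 4 without the replicate block, 8 with gates of 2 markers and 8 to 14 with 1 library left out; with library totals in place of TMM scaling it gave 6 higher and 9 lower, as the median of all genes moved from 0.03 to 0.41. The log2 ratio of the fibroblast-like collagen totals between genotypes (0.27 with kit 2) became 0.19 with gates of 2 markers, 0.11 without the highest Scrublet scores and 0.16 over libraries with at least 2 cells, an alternative chosen after seeing the data. The other 104 counts and totals stayed within 1.5 times or the 95% counting interval, among them the genotype counts, which gave 0 with and without the replicate block. The cause of these changes was not tested. Leaving out 1 library gave no genotype test, since no residual degrees of freedom are left, and the fibroblast-like and endothelial-like comparisons of 2 libraries could be repeated without 1 library only in the fits of 4. Depth limits the fibroblast-like and endothelial-like values of kit 3 (2 to 9 cells).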
